A study of Mus musculus with 4 samples.

Results

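The genes described here are 10 markers of intestinal stem cells, measured in cells sorted from mouse colonic crypts. Ascl2, Smoc2, Cdca7, Prom1 and Sox9 were taken as markers of the cycling stem cells at the crypt base. Bmi1, Hopx, Lrig1 and Tert were proposed as markers of a reserve population, and Msi1 was counted apart from both. Every gene probe that the array annotation assigns to 1 of these names was taken, which gave 16 of 41174 gene probes, on 25 of 43379 gene spots of an array. Of the 16 probes, 15 passed the filter on dim signals, and all 10 markers were among the 14801 genes tested.

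Crypts of the intestine are renewed by columnar stem cells at their base, which depend on Wnt signalling and carry the receptor Lgr5. Above them and among them lie progenitors and differentiated cells. A slower, reserve stem cell that can replace the columnar cells after injury was proposed from lineage tracing with other markers. Later work found RNA of several of those markers in the columnar cells too.

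RNA labelled Lgr5-GFP and RNA labelled CD24hi were hybridised together, in different dyes, to each of 4 arrays. The labels give adult mice and normal colon. The first RNA is from GFP-positive cells of knock-in mice that make GFP and the CreERT2 recombinase from the Lgr5 locus. The second is from cells sorted for a high level of the surface protein CD24, a gate described as taking a subset of goblet cells. Whether the CD24hi cells came from the same knock-in mice, the number of animals, their strain and any pooling are not given in the sources used here. The arrays form 2 replicates (n = 2), each a first array with the Lgr5-GFP RNA in Cy3 and a dye swap with it in Cy5. Nothing states that the replicates were separate animals. A p-value here therefore covers the spread between these samples alone, which may be technical. In sorted bulk RNA, fewer cells of a type and less RNA per cell cannot be told apart.

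Ratios below are log2 values of the Lgr5-GFP-labelled RNA over the CD24hi-labelled RNA, after background correction and loess normalization. A gene was called when limma's adjusted p was under 0.05 over all genes tested. All 8 epithelial markers listed, Epcam and Cdh1 among them, passed the filter on dim signals. The genes used for sorting ran opposite to the labels. Lgr5 had a log2 ratio of -3.41 ± 0.29 (SD, n = 2), 10.6-fold lower in the Lgr5-GFP-labelled RNA (above background in 2 of its 3 measurements there). Its spot was marked on the dye swap of replicate 1, where the raw order was reversed (5952 against 2821). With that spot kept and normalized, its log2 ratio there was -0.75. A second Lgr5 probe did not pass the filter on dim signals and had a mean of 0.06 ± 0.02. Cd24a, which encodes CD24, had 2.12 ± 0.30, 4.35-fold higher. Each direction given here is that of the labels, and the opposite holds if the labels were exchanged. The dye swap of replicate 1 stood apart. On it the median spot signal was 4377 in the Lgr5-GFP-labelled RNA and 1358 in the CD24hi-labelled RNA, against 94.2 to 164 and 110 to 197 on the other 3 arrays, and 75.3% of its gene spots were marked as outliers and left out (0.231% to 0.512% on the others). Only 7 of the 16 marker probes had a value on it, so Ascl2, Smoc2, Bmi1 and Tert rest on 1 dye orientation in replicate 1.

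Of the 10 markers, 4 were called lower in the Lgr5-GFP-labelled RNA (Smoc2, Cdca7, Lrig1 and Ascl2) and 0 were called higher, while 6 did not pass the test. Over all genes, limma called 47.2%, with 25.5% lower and 21.7% higher, so 4 lower among 10 stands beside a common event on these arrays. The calls did not follow the 2 classes. Of the 5 crypt base markers 3 were lower and 2 were near 0, and 1 of the 4 reserve markers was lower. The median log2 ratio was -1.31 for the crypt base markers (-1.13 in replicate 1 and -1.49 in replicate 2) and -0.29 for the reserve markers (-0.51 and -0.06), against -0.07 over all genes tested. The difference between the classes was not tested, since the markers were chosen with results of these data known. All 4 called markers kept 1 direction on every array with a value, as did 71% of all genes tested.

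**Figure D1:**
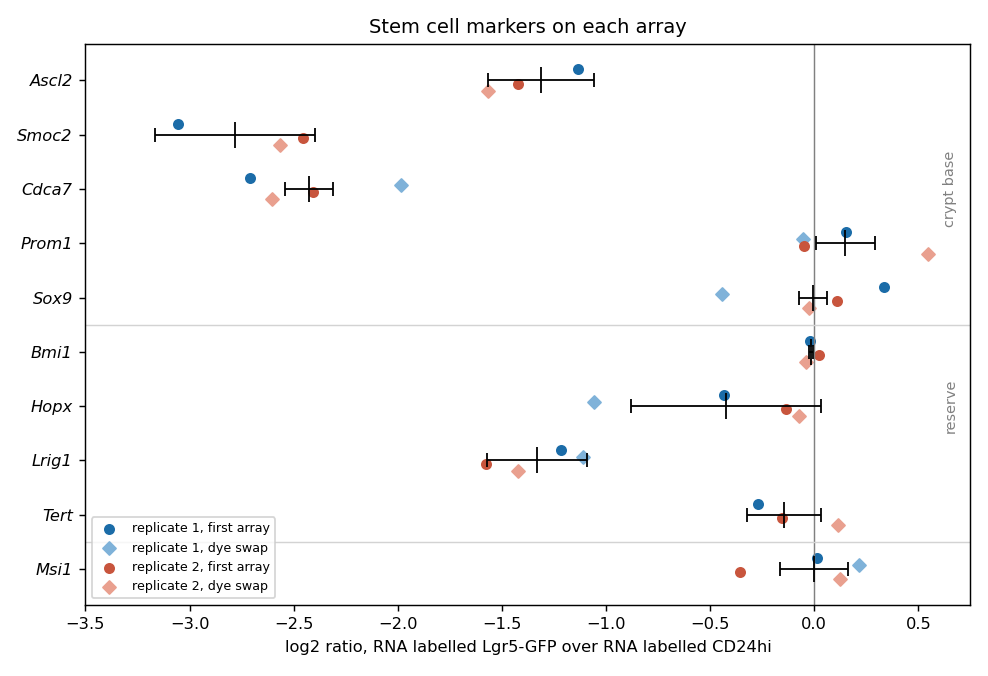
Log2 ratio of each marker, shown by its brightest probe, on every array with a value (circles, first arrays; diamonds, dye swaps). The upright bar is the mean of the 2 replicates and the whiskers are its SD. Smoc2, Cdca7, Lrig1 and Ascl2 lie left of 0 on every array with a value, and the other markers lie near 0 or on both sides of it, except Hopx, which is below 0 on each array with a mean of -0.42.

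Smoc2 encodes a secreted matricellular protein whose RNA is concentrated in crypt base cells. Its brightest probe (chr17:14540516-14540575, mm9, plus strand) had spot signals of 513, 418 and 635 in the Lgr5-GFP-labelled RNA on 3 arrays (replicate 1 first, then both of replicate 2), against 6138, 3198 and 3245 in the CD24hi-labelled RNA. On these arrays the raw signals of the populations did not overlap. The log2 ratios were -3.05, -2.46 and -2.56, and the mean over replicates was -2.78 ± 0.39 (6.88-fold lower; limma, adjusted p = 6.52e-04). The spot was marked on the dye swap of replicate 1, where the order of the raw signals was the other way round, 7687 in the Lgr5-GFP-labelled RNA and 5686 in the CD24hi-labelled RNA. With that spot kept and normalized, its log2 ratio was -1.42. A second Smoc2 probe, at chr17:14540647-14540706, gave -2.48, -1.43 and -1.70 on the same 3 arrays (mean -2.02 ± 0.64, 4.07-fold lower). Smoc2 lost its call when the background model was fitted on all spots (-2.26; limma, adjusted p = 0.0511).

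Cdca7, a Myc-responsive gene that acts in DNA methylation and is among the crypt base signature, had a value on all 4 arrays (probe at chr2:72324558-72324617, plus strand). Spot signals, in the order replicate 1 first and swap, replicate 2 first and swap, were 477, 2326, 309 and 621 in the Lgr5-GFP-labelled RNA, against 4528, 3456, 2320 and 3260 in the CD24hi-labelled RNA. The CD24hi-labelled RNA was the brighter on each array, also on the array that stood apart. The log2 ratios were -2.71, -1.98, -2.41 and -2.61, with a mean of -2.43 ± 0.11 (5.38-fold lower; limma, adjusted p = 6.42e-04). Without the dye swap of replicate 1 the mean was -2.61. In replicate 2 the log2 ratio was -2.51 for Smoc2 and for Cdca7 alike, so their order rests on replicate 1. There Smoc2 had no value on the dye swap. The order also depends on the Smoc2 probe, as the mean of the kept Smoc2 probes was -2.40, against -2.43 for Cdca7.

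Ascl2 is the basic helix-loop-helix transcription factor that sets the fate of crypt base stem cells downstream of Wnt. Its probe (chr7:150154439-150154498, minus strand) was dim, with 158, 117 and 210 in the Lgr5-GFP-labelled RNA against 534, 462 and 447 in the CD24hi-labelled RNA on the 3 arrays other than the dye swap of replicate 1. On these 3 arrays no raw signal in the Lgr5-GFP-labelled RNA reached those in the CD24hi-labelled RNA. The spot was marked on the dye swap of replicate 1, where the raw order was reversed, 4949 against 1762. With marked spots kept, its log2 ratio there was -0.31 and the mean over replicates was -1.11. Without that array the values were as follows. The log2 ratios were -1.13, -1.42 and -1.57, with a mean of -1.31 ± 0.25 (2.49-fold lower; limma, adjusted p = 0.00182). The size of this ratio moved with the background treatment. It was -0.97 with the background model fitted on all spots, -2.11 from the signals processed by the scanner software and -1.96 from the series table, and it was called each time.

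Lrig1 encodes a membrane protein that holds down ErbB receptor signalling, and it was the only called marker of the reserve class. Its probe (chr6:94554681-94554740, minus strand) had signals of 3195, 10535, 2518 and 3701 in the Lgr5-GFP-labelled RNA, against 10988, 7633, 10842 and 9014 in the CD24hi-labelled RNA, in the array order used for Cdca7. The raw order was reversed on the dye swap of replicate 1 alone. After normalization the log2 ratio was -1.21, -1.11, -1.58 and -1.42, so all 4 arrays ran the same way, with a mean of -1.33 ± 0.24 (2.52-fold lower; limma, adjusted p = 0.00169). The replicate values of Lrig1 (-1.16 and -1.50) and of Ascl2 (-1.13 and -1.49) did not differ beyond their spread.

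**Figure D2:**
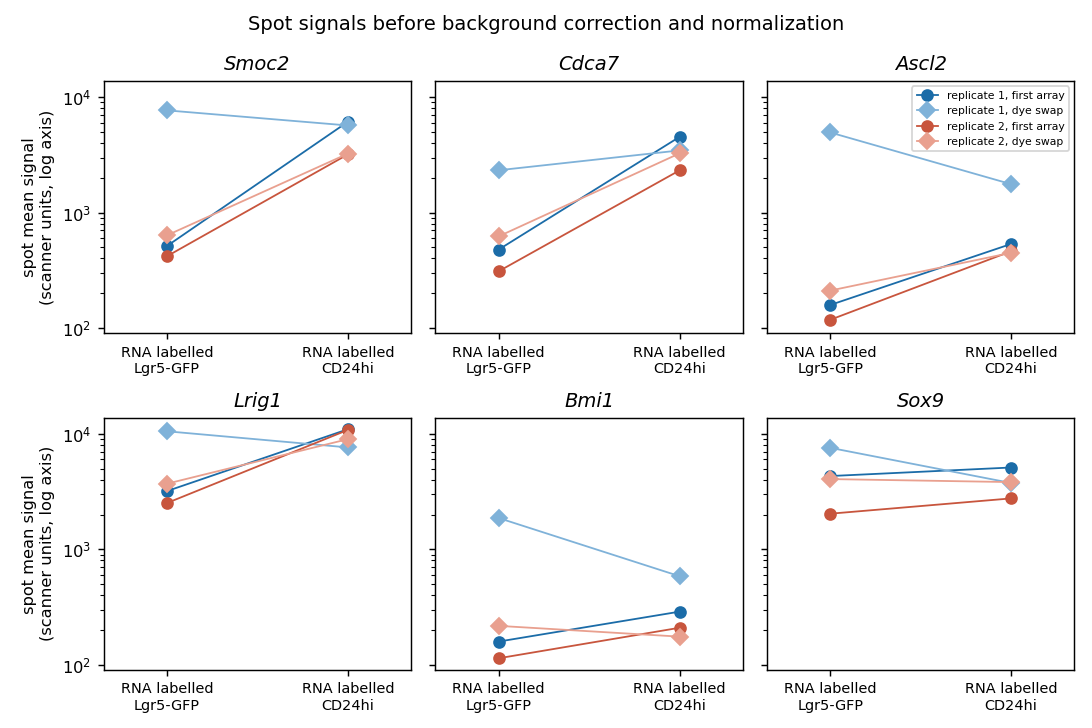
Spot mean signal (scanner units, log axis) of 6 markers in the Lgr5-GFP-labelled RNA and the CD24hi-labelled RNA, with a line for each array. For Smoc2, Cdca7, Ascl2 and Lrig1 the lines climb toward the CD24hi-labelled RNA on 3 arrays, and on the dye swap of replicate 1 (light blue diamonds) only that of Cdca7 does.

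Among all genes with a value on the 4 arrays (5650), the pattern nearest to that of Cdca7 was Kif12, a kinesin, with log2 ratios of -2.62, -1.85, -2.37 and -2.75 (Euclidean distance 0.224 over 4 arrays). The pattern nearest to that of Lrig1 was Mllt6, with -1.24, -1.01, -1.40 and -1.33 (distance 0.221).

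RefSeq promoter sequences (GRCm38.p6, 250 bases before to 50 after a start) were matched for 7 of the 10 markers, with 9 promoters in all. Those of the 3 called markers among the 7 are shown, with E-boxes marked because Ascl2 binds that motif. Whether Ascl2 acts on Cdca7 or Lrig1 was not tested. Capitals mark each E-box, CANNTG, which reads as the same motif on both strands.
Ascl2 promoter, chr7:142969215-142969514, minus strand: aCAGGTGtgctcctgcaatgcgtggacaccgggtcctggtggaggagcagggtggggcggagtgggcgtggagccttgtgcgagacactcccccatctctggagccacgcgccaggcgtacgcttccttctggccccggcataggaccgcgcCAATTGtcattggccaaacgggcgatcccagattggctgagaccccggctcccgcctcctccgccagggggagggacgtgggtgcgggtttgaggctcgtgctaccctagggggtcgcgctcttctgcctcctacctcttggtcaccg
Cdca7 promoter, chr2:72475969-72476268, plus strand: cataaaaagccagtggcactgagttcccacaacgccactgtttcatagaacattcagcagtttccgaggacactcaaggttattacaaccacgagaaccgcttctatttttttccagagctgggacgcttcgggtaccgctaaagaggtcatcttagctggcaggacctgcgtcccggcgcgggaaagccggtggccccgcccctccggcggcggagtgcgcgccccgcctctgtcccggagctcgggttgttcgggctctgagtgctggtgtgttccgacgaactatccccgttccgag
Lrig1 promoter, chr6:94700096-94700395, minus strand: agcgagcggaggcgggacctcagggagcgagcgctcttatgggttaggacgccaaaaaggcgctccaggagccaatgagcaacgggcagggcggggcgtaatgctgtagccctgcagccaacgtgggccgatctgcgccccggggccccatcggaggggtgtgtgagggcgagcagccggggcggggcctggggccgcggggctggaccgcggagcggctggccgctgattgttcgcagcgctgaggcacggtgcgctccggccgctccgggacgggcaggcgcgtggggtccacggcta
The window of Ascl2 held 2 E-boxes and those of Cdca7 and Lrig1 held 0. An E-box was in 6 of the 9 marker promoters, against 72.3% of all 32851 promoters. The TCF/LEF motif CTTTGAT, searched on both strands, was in 0 of the 9, against 3.73% of all promoters. Smoc2, Sox9 and Msi1 were not matched.

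Prom1 and Sox9, the other crypt base markers, did not go with Smoc2, Cdca7 and Ascl2, and their probes disagreed with each other. Prom1 encodes prominin 1, a pentaspan membrane protein found on stem and progenitor cells of several tissues. The brightest Prom1 probe (chr5:44385331-44385390, minus strand) gave 0.15, -0.05, -0.05 and 0.55, on both sides of 0, with a mean of 0.15 ± 0.14 and a 95% interval of -0.17 to 0.47 (limma, adjusted p = 0.382). The other probe (chr5:44397410-44397469) gave 0.83, 0.58 and 0.47 on the 3 arrays with a value. Its mean was 0.68 ± 0.22, 1.60-fold higher in the Lgr5-GFP-labelled RNA, and it was called in the fit of all 20617 probes (limma, adjusted p = 0.0104), where 46.3% of probes were called. The mean of both Prom1 probes was called too (0.41; limma, adjusted p = 0.0317).

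Sox9 encodes an HMG-box transcription factor that, in mouse small intestine, is low in crypt base stem cells and high in enteroendocrine and tuft cells. It has 3 probes, and the first 30 bases of each are shown because the call depends on the probe.
A_52_P577484: ttccaggagagagactttaagactttgtct
A_52_P214630: ataaaaccttaaagcgttcttataatatgg
A_51_P451606: actctgggcaagctctggaggctgctgaac
The first, the brightest (chr11:112647008-112647067, plus strand, base 2082 of the transcript), gave log2 ratios of 0.34, -0.44, 0.11 and -0.03. Its mean was -0.01 ± 0.07, with a 95% interval of -0.31 to 0.30 (limma, adjusted p = 0.974). Both replicates were near 0 (-0.05 and 0.04), and replicate 1 was so only as the mean of its 2 arrays. Without the dye swap of replicate 1 the mean was 0.19 (limma, adjusted p = 0.224).

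The second Sox9 probe (chr11:112648809-112648868, base 3883) was printed 10 times on every array. Its spots gave 0.38 to 0.62 on the first array of replicate 1, -0.19 to 0.10 on its dye swap, 0.73 to 0.96 on the first array of replicate 2 and 0.74 to 1.02 on the last. The spread over spots of an array (SD 0.075 to 0.086) was below that between arrays, whose means were 0.48, 0.01, 0.83 and 0.91. On each array the mean of these spots lay above the ratio of the first probe. Over replicates the mean was 0.56 ± 0.44, 1.47-fold higher in the Lgr5-GFP-labelled RNA (limma over all probes, adjusted p = 0.0472). The third probe covers 60 bases over a span of 853 (chr11:112644310-112645162, base 786), so its genomic match is split. It was dim, with raw signals of 224, 130 and 273 in the Lgr5-GFP-labelled RNA and 306, 190 and 151 in the CD24hi-labelled RNA. Raw signals include a local background that differed between the dyes. Less that background they were 173, 80.1 and 148, against 171, 61.9 and 102. The log2 ratios of this probe were 0.47, 0.45 and 0.70, with a mean of 0.52 ± 0.07, 1.44-fold higher (limma over all probes, adjusted p = 0.0171).

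Sox9 was thus called higher by 2 of its 3 probes and not called by the brightest, and none of the 3 was called lower. Among 4465 genes read by at least 2 kept probes, 35.2% had some probes called and others not, so such a split is common here.

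**Figure D3:**
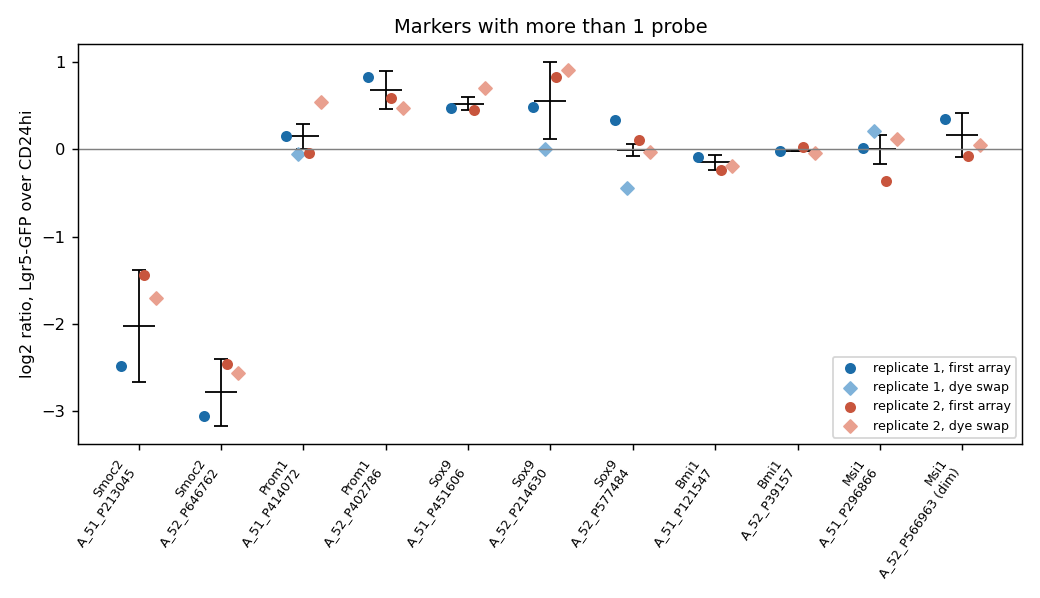
Log2 ratio on each array for every probe of the markers with more than 1 probe, with the replicate mean (bar) and SD (whiskers). Both Smoc2 probes lie below 0, the second Prom1 probe and 2 Sox9 probes lie above 0 on nearly all arrays, and the remaining Prom1, Sox9, Bmi1 and Msi1 probes lie around 0.

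Bmi1 encodes a Polycomb repressive complex 1 subunit that keeps cell cycle inhibitors silent. Its brightest probe (chr2:18607987-18608046, plus strand) was dim on the 3 arrays with a value. Its raw signals were 158, 113 and 216 in the Lgr5-GFP-labelled RNA and 288, 208 and 175 in the CD24hi-labelled RNA. Less local background they were 107, 64.3 and 90.5, against 154, 77.45 and 125. The log2 ratios were -0.02, 0.02 and -0.04, on both sides of 0. The mean was -0.02 ± 0.01, with a 95% interval of -0.32 to 0.29 (limma, adjusted p = 0.932), so linear ratios of 0.803 to 1.22 lie within the interval. The second Bmi1 probe (chr2:18605306-18605365) was well above background on 1 of 3 arrays in the Lgr5-GFP-labelled RNA and on 3 of 3 in the CD24hi-labelled RNA. It gave -0.09, -0.23 and -0.19, a mean of -0.15 ± 0.09 (limma over all probes, adjusted p = 0.356).

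Hopx encodes a small homeodomain protein that does not bind DNA. Its probe (chr5:77516460-77516519, minus strand) was bright, with 4221, 7532, 2509 and 4913 in the Lgr5-GFP-labelled RNA and 8500, 5543, 4014 and 4757 in the CD24hi-labelled RNA. The log2 ratios were -0.44, -1.06, -0.13 and -0.07, all below 0, but the replicates differed, at -0.75 and -0.10. The mean was -0.42 ± 0.46 (95% interval -0.88 to 0.03; limma, adjusted p = 0.110). Without the dye swap of replicate 1, its lowest array, the mean was -0.27 (limma, adjusted p = 0.105). With arrays centred on their median in place of loess, the ratio of Hopx was -0.54 and was called (limma, adjusted p = 0.0392), but the median of all genes moved to -0.25 under that scaling.

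Tert encodes the reverse transcriptase of telomerase, and its RNA is scarce in most tissues. On the 3 arrays with a value, its probe (chr13:73786429-73786488, plus strand) had raw signals of 135, 94.2 and 204 in the Lgr5-GFP-labelled RNA. The CD24hi-labelled RNA had 283, 196 and 141. Less local background they were 84.1, 48.2 and 70.6, against 147, 63.8 and 89.5. The probe was well above background on 2 of 3 arrays in the Lgr5-GFP-labelled RNA and on 3 of 3 in the CD24hi-labelled RNA. The log2 ratios were -0.27, -0.16 and 0.12, with a mean of -0.15 ± 0.18 (95% interval -0.48 to 0.18; limma, adjusted p = 0.407).

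Msi1 encodes an RNA-binding protein of neural and intestinal progenitors. Its kept probe (chr5:115904030-115904089, plus strand) gave 0.01, 0.21, -0.36 and 0.12, on both sides of 0, with a 95% interval of -0.33 to 0.32 (limma, adjusted p = 0.993). The second Msi1 probe (chr5:115898129-115898188) was not well above background in either population on any array with a value and was not tested.

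In order of their mean ratios, the markers ran from Smoc2 and Cdca7, through Lrig1 and Ascl2, to Hopx, Tert, Bmi1, Sox9, Msi1 and Prom1. The replicate values of Cdca7 and Lrig1, and of Ascl2 and Hopx, did not overlap, and from Hopx on each marker overlapped the next.

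**Figure D4:**
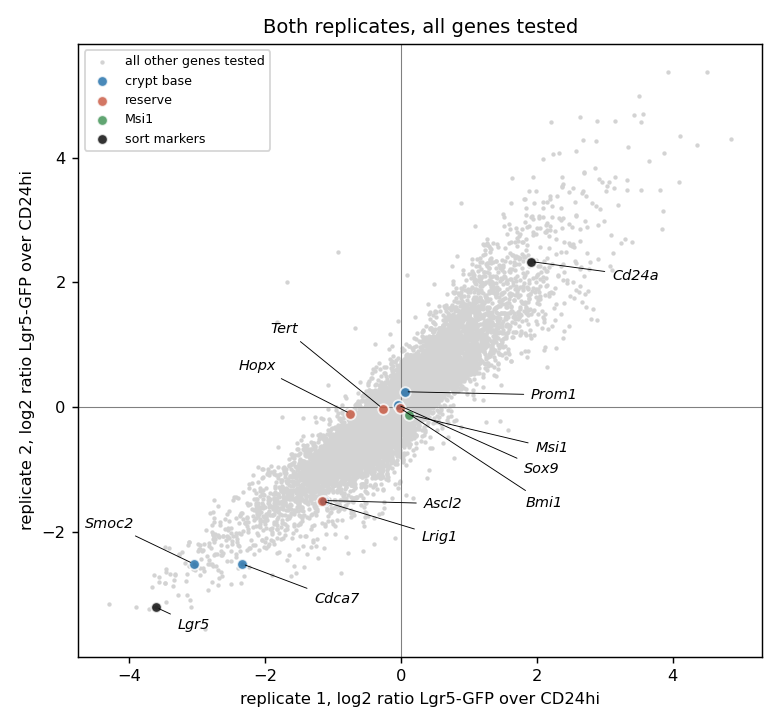
Log2 ratio of each of the 14801 tested genes in replicate 1 (x axis) and replicate 2 (y axis), with the stem cell markers and the sort markers named. Smoc2, Cdca7, Lrig1 and Ascl2 lie toward Lgr5 in the lower left, Lrig1 and Ascl2 at nearly the same point, and the other 6 markers lie near the centre.

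Other genes of crypt base columnar cells were counted beside the members. Of 30 listed, 24 were tested, and 16 fell and 3 rose in the Lgr5-GFP-labelled RNA, with a median log2 ratio of -0.85 against -0.07 over all genes (17 fell and 3 rose without the dye swap of replicate 1). Leaving out that array lifted the share of all genes called to 57.7% (30.8% lower and 26.9% higher), against 47.2% (25.5% and 21.7%) with it, and the counts given without it are to be read against that. Scn2b, a sodium channel subunit above background on 2 of 3 arrays in the Lgr5-GFP-labelled RNA, had -3.15 ± 0.47, Myc, the Wnt-driven growth regulator, -2.39 ± 0.05, Rnf43, a ubiquitin ligase that removes Wnt receptors, -2.09 ± 0.06, and Phlda1 -1.96 ± 0.19 (limma, adjusted p = 7.38e-04 or below). Esrrg (-0.39) and Nkd1 (0.14), an inhibitor of Wnt signalling, were not called. Some listed genes also serve dividing cells.

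Of 12 other genes proposed for reserve or injury-revived stem cells, 11 were tested, and 3 fell and 3 rose, with a median of -0.27 (3 fell and 4 rose without the dye swap of replicate 1). The share called, 54.5%, was near that of all genes, 47.2%. Dclk1, a kinase that marks tuft cells, rose (2.28 ± 0.37), but it was well above background on only 1 of 3 arrays in the CD24hi-labelled RNA, so the size of its ratio is uncertain. The transcription factor Sox4 (-1.20), the RNA-binding Mex3a (-1.19) and Anxa1, an annexin (-1.10), fell. Mex3a and Tnfrsf19 are also among the other crypt base genes above and were counted in each list. The keratin Krt15 (-0.27) and the transcription factor Prox1 (0.34) were not called.

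The closest relatives of the members were also read. Of 10 listed, 7 were tested, and 3 fell and 0 rose (the same counts without the dye swap of replicate 1). The share called in either direction was 42.9%, near the 47.2% of all genes, of which 25.5% were lower. The median was -0.42, with -0.61 in replicate 1 and -0.01 in replicate 2. Lrig2 (-0.71) and Lrig3 (-0.73), transmembrane proteins of the Lrig1 family, fell. Cdca7l, the relative of Cdca7, was dim there, not well above background on any array with a value, and was at least 1.29-fold lower (limma, adjusted p = 0.0240). Msi2 (-0.42 ± 0.64), the relative of Msi1, was not called.

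Of the ErbB receptors that Lrig1 restrains, 3 of 4 were tested and all were called, as were 47.2% of all genes. Egfr rose (0.74 ± 0.07), and Erbb2 (-0.70 ± 0.01) and Erbb3 (-0.66 ± 0.18) fell (limma, adjusted p = 0.0110 or below).

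Around Bmi1, 16 of 17 Polycomb repressive complex 1 genes were tested, and 7 fell and 0 rose (median -0.39; 9 fell without the dye swap of replicate 1). The share called in either direction was 43.8%, near the 47.2% of all genes, of which 25.5% were lower. Cbx6 (-1.19 ± 0.43), Cbx2 (-0.98 ± 0.06) and Cbx7 (-0.79 ± 0.24), the chromodomain subunits, and Pcgf6 (-1.13 ± 0.02), a paralogue of Bmi1, fell. Phc3 (-0.42) and Kdm2b (-0.37) were not called.

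Around Tert, 11 of 12 genes of the telomerase complex and of shelterin, the telomere-capping complex, were tested, and 5 fell and 0 rose (median -0.36; 6 fell and 1 rose without the dye swap of replicate 1). The share called in either direction was 45.5%, again near the 47.2% of all genes. All those called here fell, and over all genes 25.5% were called lower. Gar1 (-1.55 ± 0.26), Dkc1 (-0.93 ± 0.51) and Nhp2 (-0.88 ± 0.19), which also serve the small nucleolar RNAs of ribosome assembly, and Terf1 (-0.93 ± 0.32), a telomere-binding protein, fell. Terf2ip (0.32) and Wrap53 (-0.36) were not called.

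**Figure D5:**
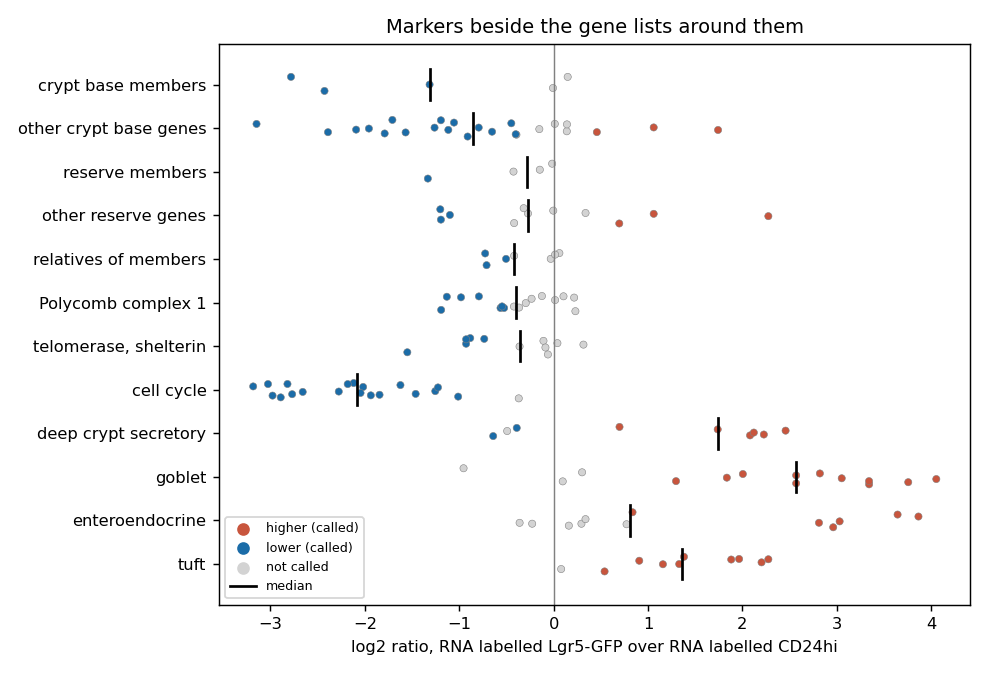
Log2 ratio of every tested gene in each list (points, spread vertically at random; red, called higher; blue, called lower; grey, not called) with the list's median (black bar). The crypt base lists and the cell cycle genes have medians well below 0, the reserve, Polycomb and telomerase lists are nearer 0, and the secretory lists lie above 0.

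Markers of other cells were counted as well. Their counts stand beside 25.5% of all genes called lower and 21.7% higher (30.8% and 26.9% without the dye swap of replicate 1). Of 20 cell cycle genes, 19 fell and 0 rose in the Lgr5-GFP-labelled RNA (median -2.08; 20 fell without the dye swap of replicate 1). Birc5 (survivin) had -3.18, the proliferation antigen Mki67 -3.03, and Mcm6 and Mcm4, of the DNA replication helicase, -2.98 and -2.89, while Bub1, a spindle checkpoint kinase (-0.37), was not called. Their summed normalized signal ran from 21942 to 31310 in the Lgr5-GFP-labelled RNA and from 140101 to 151180 in the CD24hi-labelled RNA over the 3 arrays without the dye swap of replicate 1. Of 14 goblet cell markers, 11 rose and 0 fell (median 2.57; 11 and 1 without that dye swap), and their summed signal ran from 817525 to 1163830 in the Lgr5-GFP-labelled RNA and from 88842 to 165659 in the CD24hi-labelled RNA. Among 9 tested Paneth or deep crypt secretory genes, 6 rose and 2 fell (median 1.74; 6 and 3 without that dye swap), and 1 of the 6 was Cd24a, the sorting gene given above. The part of these cells in the ratios of the stem cell markers was not tested.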

How the data were processed

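Per the file headers, arrays were read with Agilent Feature Extraction 10.5.1.1, and probe positions are in build mm9. The deposited intensity values were each spot's mean signal and median local background in 2 colours, and, background-subtracted and dye-normalized by that software, its processed signals. The deposited log10 ratio of red over green equalled that of the processed signals within 0.001 for 68.9% to 99.9% of gene spots and served only to check the series table. The deposited series table holds log2 ratios of red over green, identified by comparing each column with the log10 ratio of its array (r of 0.923 to 0.986). Its column medians were -0.01, 0.03, -0.01 and -0.01, and the sources used here do not give its normalization.

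Spots with a non-uniform local background were left out (74 on the first array of replicate 2, 0 on the others), and the rest were corrected with normexp (offset 50) in limma 3.58.1 (R 4.3.3). Spots marked as outliers were removed, and each array got a global loess fit that ignored control spots. Swapped arrays were turned in sign. Spots of a probe were averaged, and an array and its swap gave 1 ratio per replicate. Limma tested the 2 ratios against 0 (2-sided, Benjamini-Hochberg over 14801 genes, 1 residual and 4.50 prior degrees of freedom). Arrays give no read depth, and their number limits the precision. A probe passed if it was well above background on every array with a value in at least 1 population, and the brightest kept probe stood for a gene. Names came from a RefSeq table for 27041 of 43379 gene spots, and 16338 kept the file's name. Slide and replicate cannot be told apart, since each replicate had a slide to itself. A gene not well above background in 1 population was given a bound, the brighter mean against a floor in the dim population (per array, its own signal or the lowest one well above background, whichever was greater), which is open to dye bias. Summed list signals are channel values scaled by loess and Aquantile.

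The members, gene lists, tests and other settings were chosen with earlier results of these data known. Named genes were the 10 members with all their probes, Lgr5 and Cd24a, up to 4 called genes with the largest ratios and 2 uncalled genes with the lowest adjusted p per list, and the gene nearest in pattern to each called member with 4 values. Of these, 3 list genes are not reported here. The lists covered other crypt base genes, other reserve genes, relatives of the members, Polycomb, telomerase and ErbB partners, and markers of goblet, Paneth and deep crypt secretory, enteroendocrine, tuft, absorptive, dividing, white blood, stromal, neural and epithelial cells.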

Additional observations from a re-analysis of the deposited data

How the results depend on the processing

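Cdca7 and Lrig1 stayed called lower under all 16 alternatives that gave a test and Ascl2 under all 14, while Smoc2 did so under 13 of 14 and had -2.26 with the background model fitted on all spots (limma, adjusted p = 0.0511). Their log2 ratios ran from -2.73 to -1.89 for Cdca7, from -1.50 to -1.16 for Lrig1, from -2.11 to -0.97 for Ascl2 and from -3.05 to -2.26 for Smoc2. The alternatives were not all separate checks. Ascl2, with 1 probe and no value on the dye swap of replicate 1, kept -1.31 without the dim filter and without that array, for example. Of all genes, 6985 were called, against 1387 with the background model fitted on all spots (5801 at an unadjusted p under 0.05), 3731 with marked spots kept, 969 of 6021 on the dye swaps alone and 983 of 6022 without the first array of replicate 1. Median centring called 2218 higher and 5424 lower, against 3205 and 3780. The cause of these changes was not tested. The median of the crypt base markers was -0.97 with the background fitted on all spots, -2.11 from the processed signals, -1.96 from the series table and -1.60 with median centring. On the dye swaps alone it was -0.24, and without the first array of replicate 1 it was -0.20, each over 3 markers, since Ascl2 and Smoc2 then had no value. The reserve median was -0.92 and -0.94 in those settings, over Hopx and Lrig1. These medians changed with fewer markers. Markers near 0 changed sign without being called in these settings. Prom1 had -0.038 with median centring. Sox9 had 0.22 on the first arrays alone, 0.36 as the mean of its probes, 0.19 without the dye swap of replicate 1 and 0.028 without that of replicate 2. Bmi1 had 0.000324 on the first arrays alone and without the dye swap of replicate 2. Msi1 had 0.081 with the background fitted on all spots, 0.028 with the processed signals, 0.17 on the dye swaps alone, 0.048 without the first array of replicate 1 and 0.12 without that of replicate 2. The other Sox9 probes, a comparison chosen after seeing the data, were called higher (0.56 and 0.52). Prom1 was called as the mean of its probes (0.41) and by its second probe alone (0.68), and Hopx with median centring (-0.54). The counts without the dye swap of replicate 1 in the lists were also chosen after seeing the data. With the replicate number as a block for single arrays, 8220 genes were called (consensus correlation -0.042), and no marker's call changed. Leaving out a whole replicate left no residual degree of freedom, so it gave values only, of -0.75 to -0.10 for Hopx and -1.49 to -1.13 for Ascl2, and no count. Tert was not tested when signal above background was required in both populations. Tert, both Bmi1 probes, the third Sox9 probe and Ascl2 lie near background, which limits their ratios.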

Other observations

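Other cell type lists gave the following counts, to be read against 21.7% of all genes called higher and 25.5% called lower. Of 12 tested enteroendocrine markers, 6 rose and 0 fell in the Lgr5-GFP-labelled RNA (median 0.80, with 0.22 in replicate 1 and 2.25 in replicate 2), and the share called, 50%, was near the 47.2% of all genes. Among those that rose were Chgb (3.87), Chga (3.64), Tph1 (3.03) and Sst (2.96). Gcg (-1.69 and 2.01), Pyy (-0.94 and 2.48), Insl5 (-1.83 and 1.37) and Cck (-0.67 and 1.26) had opposite signs in replicates 1 and 2 and were not called, and these 4 hormones are named because their values were seen. Neurog3 (-0.36) and Pax4 (0.34), transcription factors of their progenitors, were not called. Of 10 tested tuft cell markers, 9 rose and 0 fell (median 1.36), with Trpm5 at 1.97 and Dclk1, dim in the CD24hi-labelled RNA on 2 of its 3 arrays, at 2.28. Ptgs1, a cyclooxygenase, was dim in the CD24hi-labelled RNA, not well above background there on any array with a value. Its bound, 3.69-fold higher in the Lgr5-GFP-labelled RNA, equalled its fitted ratio (limma, adjusted p = 0.00416). The replicates differed, at log2 ratios of 2.47 and 1.30 (mean 1.88 ± 0.82), so the size of the ratio is uncertain. Of 12 tested absorptive colonocyte markers, 5 rose and 0 fell (median 0.29; 41.7% called), with Guca2a at 3.05 and Scnn1a at 2.54. Of 8 epithelial markers, 0 rose and 2 fell, Cdx2 (-0.63) and Krt8 (-0.61).

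Markers of cells outside the epithelium all had probes, but many did not pass the filter on dim signals in either population. White blood cell markers passed for 3 of 12 genes, none of them called, also at an unadjusted p under 0.05 (Cd3e -0.16). Of 3 tested stromal markers of 13, Col1a2 rose (0.44; limma, adjusted p = 0.0390), and Vim (0.36) and Acta2 (-0.09) were not called. Of 5 tested enteric neuron and glia markers of 8, none was called (S100b -0.43, Elavl4 -0.15).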
